A study of Mus musculus with 6 samples.

Results

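Glycolysis and the control of pyruvate dehydrogenase were followed in the mouse retina through 32 genes chosen by name. They comprised 20 glycolytic enzymes, 5 regulators of fructose-2,6-bisphosphate, 4 pyruvate dehydrogenase kinases and 3 subunits of the pyruvate dehydrogenase complex. A gene was measured where a probe set of the array carried its symbol and no other, and the probe set with the highest mean signal stood for the gene. By this rule 28 of the 32 were measured, among 22180 genes in all. Aldoa shared its probe set with Aldoart1, and Gpi1, Eno1 and Pfkfb1 had no probe set under the rule. These 4 genes were not analysed here. The samples were total RNA of whole retinas from 15-day-old mice of the 129SvJ strain, each measured on its own Affymetrix whole-transcript array. Of the 6 samples, 3 were labelled Sirt6 wild-type (WT) and 3 Sirt6 knock-out (KO, Sirt6-/-). All values are log2 of the normalised intensity that the authors deposited, so that a difference of 1 is a doubling. Mice without SIRT6 are known to become severely hypoglycaemic, and an effect within the retina and one of low blood glucose cannot be told apart here. How the allele was made, the sex of the mice, and whether a sample pooled retinas of several mice, are not given in the sources used here.

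Glycolysis turns glucose into pyruvate in the cytosol. Hexokinase and phosphofructokinase commit the sugar to the pathway, and fructose-2,6-bisphosphate, made and removed by the Pfkfb enzymes, is the strongest activator of phosphofructokinase. Pyruvate is either reduced to lactate by lactate dehydrogenase or oxidized in the mitochondrion by the pyruvate dehydrogenase complex, which the Pdk kinases switch off by phosphorylation. The retina, and its photoreceptors above all, makes much lactate even when oxygen is present. SIRT6 is a histone deacetylase known to restrain glycolytic genes in other tissues as a co-repressor of Hif1α, and the study asked how its loss acts on the retina.

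Sirt6 itself was far lower in every KO sample, at 6.47, 7.15 and 6.83 against 9.34, 9.14 and 9.32 in WT, so that no sample went against its label (log2 difference -2.45, adjusted p = 0.032 from limma). The position of this probe set relative to the deletion is unknown. The samples numbered 2 of both genotypes stood apart from the others, with an interquartile range of 2.485 and 2.601 against 2.845 to 3.069 in the other arrays, and KO replicate 3 stood apart on the second principal component. Samples with the same number deviated together for numbers 1 and 2 (correlation of deviations 0.626 and 0.742), but only weakly for number 3 (0.193). Among samples of different number, WT replicate 3 and KO replicate 1 correlated at 0.506. These shared deviations bear on every comparison here. The tissue label fitted its rod markers. Their summed intensity was 43452 to 45434 in WT, against 1138 to 1273 for 8 skeletal muscle markers. None of the 7 rod, 7 cone, 7 Müller glia and 7 ganglion cell markers measured was under the lower quartile of signals on all arrays. The same held for all but 1 of the skeletal muscle markers, so that measure alone cannot test the label. All 9 lens markers were measured too. In bulk RNA, fewer cells of a type and less RNA per cell cannot be told apart.

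Glycolytic enzymes tended to be slightly lower in KO retinas, and none passed the test over all probe sets. Of the 17 measured enzymes, 16 had a lower mean in KO, where 51.8% of all probe sets tested did so and 53.2% of those with a mean log2 intensity over 10. Their median difference was -0.12 on the log2 scale, against -0.01 over all probe sets, and single enzymes ran from -0.46 (Hk2) to 0.05 (Eno3). When each KO sample was set against the WT sample of the same number, 14 of the 17 enzymes (82.4%) were lower in all 3 pairs, where 15.9% of all probe sets were, and 20.2% of those with a mean over 10. The exceptions were Eno3, Pklr and Ldhb. Some of the 14 counted on very small gaps, as in pair 1 for Pfkp (-0.001) and Hk1 (-0.006). The median of the enzymes was -0.065, -0.152 and -0.196 in pairs 1 to 3. That of the 2092 probe sets with a mean over 10 was -0.007, 0.068 and -0.14, so that pair 3 was low for bright probe sets too. The pairing itself is uncertain for numbers 1 and 3. The count of lower means was 16 as well with median centring and with quantile normalization applied again, but these scalings moved the count of enzymes lower in all 3 pairs to 11 and 10. The 14 are necessarily lower in any choice of 2 pairs. Pairs 1 and 3 added 0 to them (26.4% of all probe sets were lower in both), and pairs 2 and 3 (25.7%) and pairs 1 and 2 (29.2%), counted after seeing the data, each made 15. Leaving out KO replicate 2 or KO replicate 3 lowered the count of lower means to 12 and 13. Of the lens and ganglion cell markers, 88.9% and 71.4% were lower in all 3 pairs. A high share was thus not particular to the enzymes.

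Pyruvate dehydrogenase genes did not share that direction. The median difference was 0.09 for the 4 kinases and 0.09 for the 3 subunits, and -0.11 for the 4 measured regulators of fructose-2,6-bisphosphate. The first 2 medians turned to -0.14 and -0.11 without WT replicate 2. Among all 28 members 7 had a higher mean in KO (48.2% of all probe sets), and 2, Pdk4 and Pdha1, were higher in all 3 pairs (13.5%). Over all 28 members, 1 was lower (Pfkl) and 1 higher (Pdk4) at an unadjusted p under 0.05 from limma, where 0.961% of all probe sets were lower and 0.897% higher. Of the probe sets with a mean over 10, 0.621% were lower. Over all probe sets these were 226 lower and 211 higher, and the scaling moved that split, to 616 and 303 with quantile normalization again and 459 and 152 on the linear values. At an adjusted p under 0.05 there were 0 members (adjusted p = 0.9999 each from limma) and 1 probe set in all, that of Sirt6 (0.00425%). With the replicate number as a block, Pgam1 joined Pfkl among the lower ones, so that 2 members were lower and 1 higher unadjusted (backgrounds of 3.54% and 3.77%), and 0 passed after adjustment. With 1 sample fewer the test has less power. The counts were 0 and 0 when replicate 1 or 3 of WT, or replicate 2 or 3 of KO, was left out, while the differences in those fits were -0.42 to -0.32 for Pfkl and 0.34 to 0.49 for Pdk4. Leaving out KO replicate 1, or WT replicate 2, gave 2 lower and 1 higher.

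**Figure D1:**
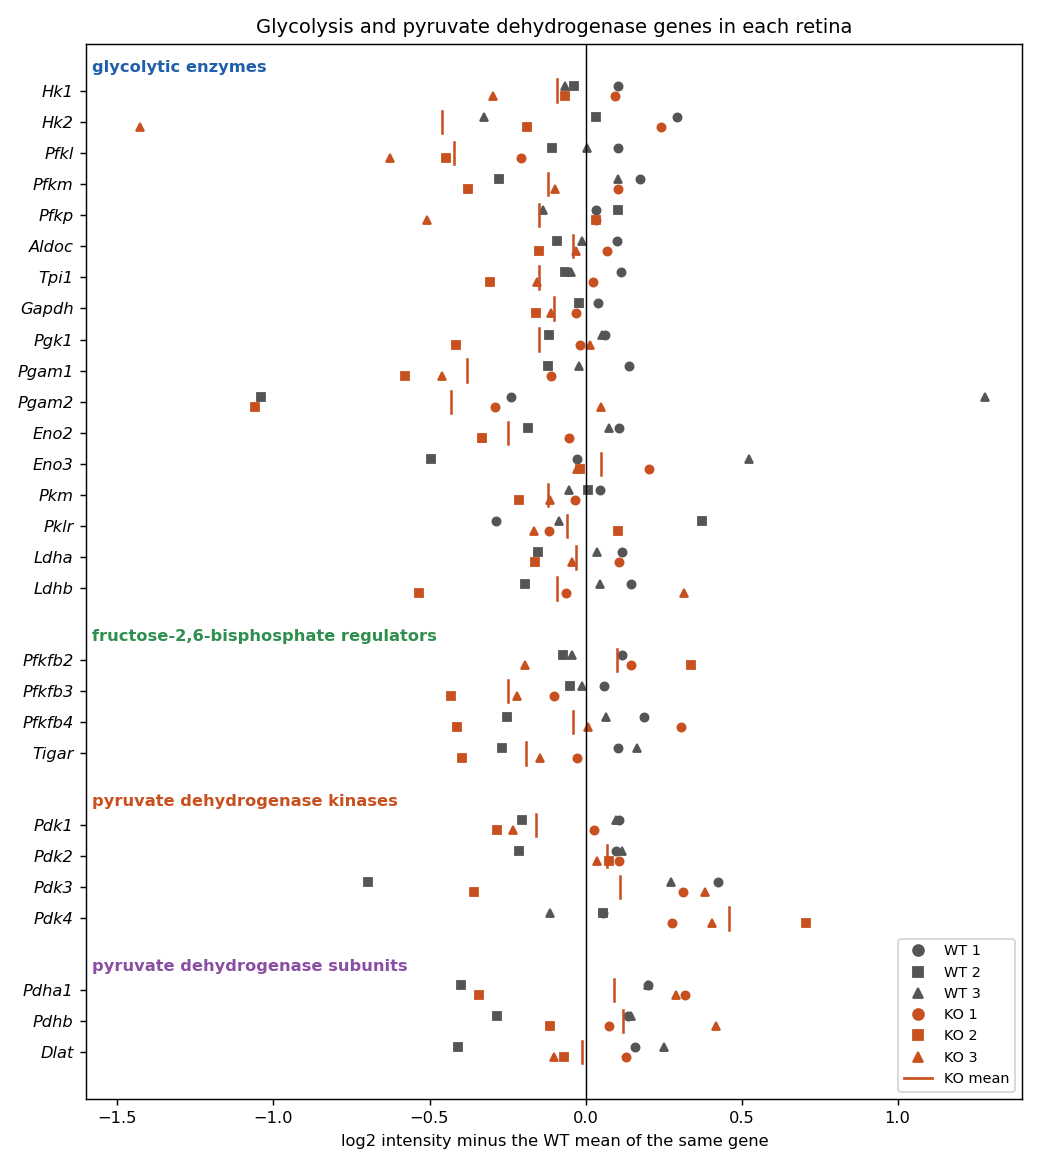
Log2 intensity of each measured member in each of the 6 retinas, less the WT mean of that gene (x axis), with WT samples in grey and KO samples in orange and a symbol for each replicate number. The bar is the KO mean. It lies left of 0 for 16 of 17 enzymes. All KO points lie below all WT points only for Pfkl, Gapdh and Pfkfb3 (3.67% of all probe sets). They lie above them only for Pdk4 (1.98%).

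The promoters of the 3 enzymes that differed most at a high signal, Pfkl, Pgam1 and Hk2, and of Pdk4, the member furthest above 0, are shown because SIRT6 is known as a co-repressor of Hif1α, which binds the hypoxia response core. Each line gives the 250 bases before the RefSeq start in build GRCm38.p6, 5′ to 3′ on the gene's strand. Capitals mark the hypoxia response core in its forms ACGTG and GCGTG, which read CACGT and CACGC where they lie on the other strand.
Pfkl: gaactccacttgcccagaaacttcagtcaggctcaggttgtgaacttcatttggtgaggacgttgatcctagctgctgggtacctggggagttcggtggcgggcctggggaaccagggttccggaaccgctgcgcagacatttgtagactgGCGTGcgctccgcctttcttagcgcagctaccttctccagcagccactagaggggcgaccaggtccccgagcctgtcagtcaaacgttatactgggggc
Pgam1: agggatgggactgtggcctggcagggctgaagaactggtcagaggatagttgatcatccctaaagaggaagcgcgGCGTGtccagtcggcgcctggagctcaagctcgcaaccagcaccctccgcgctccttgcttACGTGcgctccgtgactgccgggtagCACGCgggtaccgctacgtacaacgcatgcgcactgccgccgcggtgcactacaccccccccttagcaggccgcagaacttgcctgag
Hk2: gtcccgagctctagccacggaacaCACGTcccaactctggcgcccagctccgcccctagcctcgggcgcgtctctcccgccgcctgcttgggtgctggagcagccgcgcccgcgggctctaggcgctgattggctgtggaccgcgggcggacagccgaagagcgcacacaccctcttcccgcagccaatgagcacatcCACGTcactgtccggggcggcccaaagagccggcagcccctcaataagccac
Pdk4: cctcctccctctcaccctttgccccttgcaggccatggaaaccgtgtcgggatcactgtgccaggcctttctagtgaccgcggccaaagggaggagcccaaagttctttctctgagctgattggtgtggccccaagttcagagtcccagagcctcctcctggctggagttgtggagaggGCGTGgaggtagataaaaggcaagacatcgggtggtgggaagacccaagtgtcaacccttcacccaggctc
The windows are chr10:78009808-78010057 on the minus strand for Pfkl, chr19:41911621-41911870 on the plus strand for Pgam1, chr6:82774455-82774704 on the minus strand for Hk2 and chr6:5496279-5496528 on the minus strand for Pdk4. Hk2 held 2 ACGTG cores, starting 226 and 52 bases before the start. Pgam1 held ACGTG 114 bases before it and GCGTG at 175 and 88. Pfkl and Pdk4 held no ACGTG, and GCGTG stood 99 and 71 bases before their starts. In windows that also took in the first 50 bases of the transcript, ACGTG on either strand was in 19 of the 52 promoters listed for the members (36.5%) and in 19.6% of the 32851 promoters of the same length in the table. By gene, 15 of the 32 members had it in some promoter, among them 10 of the 20 enzymes, and 21.8% of all genes did. The count by gene favours the members, which had 52 promoters for 32 genes, against 32851 for 27025 genes in all. The E-box CACGTG, which reads ACGTG on both strands, was in 5 member promoters (9.62%) and in 7.15% of all. Both forms of the core hold the bases CG, and the members' promoters were not matched to the others for base composition. A match of letters describes the sequence and not a bound site, and the members with and without the core were not compared for expression.

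Among the first steps, Pfkl separated the genotypes. Pfkl, the liver-type phosphofructokinase subunit, had levels of 11.13, 10.92 and 11.03 in WT and 10.82, 10.58 and 10.40 in KO replicates 1 to 3. Every KO sample lay below every WT sample, as in 3.67% of all probe sets. The means were 11.02 ± 0.11 in WT and 10.60 ± 0.21 in KO (SD, n = 3). The difference was -0.42 on the log2 scale, a KO level of 0.747 times WT, with a standard error of 0.17 and a 95% interval of -0.82 to -0.03. Its unadjusted p was 0.040 from limma, and the exact permutation test gave p = 0.10, two-sided, the smallest that 3 samples against 3 allow. Pfkl lies on chromosome 10, as Sirt6 does, and an influence of the altered locus on its value was not tested. The other phosphofructokinase subunits were closer to 0, the muscle-type Pfkm at -0.12 (standard error 0.20) and the platelet-type Pfkp at -0.15 (standard error 0.20), and both overlapped between the genotypes.

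Hk2, the inducible hexokinase that photoreceptors use, had the lowest difference of all members, and 1 sample set it. Its levels were 10.64, 10.38 and 10.02 in WT and 10.59, 10.16 and 8.92 in KO. KO replicates 1 and 2 lay within the WT range and KO replicate 3 far below it. The difference of -0.46 had a standard error of 0.39 and an unadjusted p of 0.279 from limma, and without KO replicate 3 it was 0.03. The summed intensity of the 7 measured rod markers was also lowest in that sample, at 40385 against 42848 to 45434 in the others, and its part in the Hk2 value was not tested. Hk1, the hexokinase of most neurons, differed by -0.09 (standard error 0.17), with KO replicate 3 again lowest at 10.78.

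Genes of the middle of the pathway had slightly lower means in KO, within wide intervals. Aldoc, the brain-type aldolase, was at -0.04 (95% interval -0.40 to 0.32) and Tpi1, triosephosphate isomerase, at -0.15 (-0.53 to 0.23). Gapdh, the dehydrogenase often used as a reference gene, had 13.22, 13.16 and 13.16 in WT and 13.15, 13.02 and 13.07 in KO. Every KO sample lay below every WT sample, as in 3.67% of all probe sets, but the gap was small, at -0.10 with a standard error of 0.15. A further Gapdh probe set of similar signal had -0.11 without overlap, and a dimmer one had -0.05 with overlap. Gapdh has many near-identical processed copies in the mouse genome, so its values are uncertain, and 8 probe sets that also name such a copy were not used. Pgk1, the first ATP-yielding kinase of the pathway, was at -0.14 (-0.55 to 0.26), with the lowest levels in WT replicate 2 (12.19) and KO replicate 2 (11.89).

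Pgam1, the main phosphoglycerate mutase, was the second enzyme with a sizeable gap. It had levels of 12.16, 11.90 and 12.00 in WT and 11.91, 11.44 and 11.56 in KO. Only KO replicate 1 reached the WT range, just above WT replicate 2. The KO level was 0.767 times WT, a difference of -0.38 (standard error 0.18, unadjusted p = 0.067 from limma), and by pair it was -0.25, -0.46 and -0.44. With the replicate block the standard error was 0.13 and the unadjusted p 0.018 (adjusted p = 0.630 from limma, with 0.140 to 1.0 as the range over its alternatives). A second Pgam1 probe set had -0.16 (standard error 0.16), and there KO replicate 3 (11.69) lay among the WT values of 11.60 to 11.72, so that the size of the gap depended on the probe set.

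**Figure D2:**
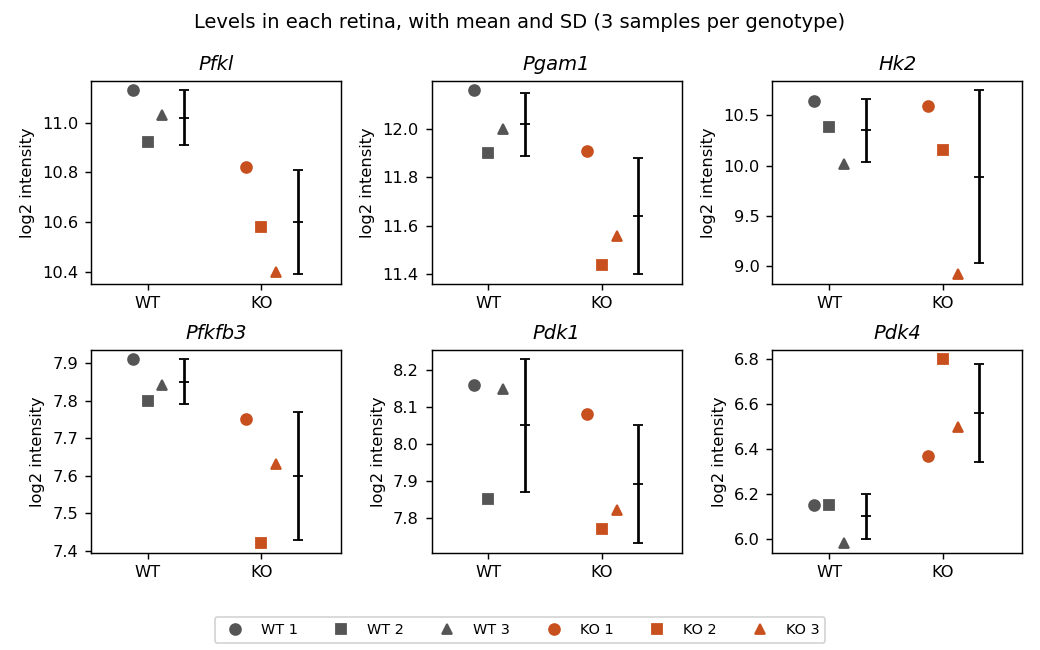
Log2 intensity (y axis, different range in each panel) of 3 enzymes, a regulator and 2 kinases in each retina, with the mean and SD of 3 samples beside the points. Pfkl, Pfkfb3 and Pdk4 separated the genotypes, Pgam1 and Pdk1 did not, and the low KO mean of Hk2 came from KO replicate 3.

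Eno2, Pkm and Pklr had lower means in KO, with overlap between the genotypes. Eno2, the neuronal enolase, had 11.08, 10.79 and 11.05 in WT and 10.92, 10.64 and 10.64 in KO. It was lower by 0.16, 0.15 and 0.41 in the 3 pairs, while WT replicate 2 lay below KO replicate 1. The difference of -0.24 had a standard error of 0.17 and an unadjusted p of 0.196 from limma. Pkm, the pyruvate kinase of neurons and photoreceptors, had 12.61, 12.57 and 12.51 in WT and 12.53, 12.35 and 12.45 in KO, a difference of -0.12 (95% interval -0.47 to 0.23). Only KO replicate 1 reached into the WT range. Its M1 and M2 splice forms were not separated here. Pklr, the pyruvate kinase of liver and red cells, was above the array's median on 1 of 6 arrays and differed by -0.06 (standard error 0.21).

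Lactate dehydrogenase did not differ detectably. Ldha, which favours lactate formation, had 11.36, 11.09 and 11.28 in WT and 11.35, 11.08 and 11.20 in KO. Each KO value stood next to the WT value of its number, and the difference of -0.03 had a 95% interval of -0.41 to 0.34. Ldhb, which favours lactate use, was lower in KO by 0.20 and 0.34 in pairs 1 and 2 and higher by 0.28 in pair 3. Its difference was -0.09 (-0.63 to 0.45).

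**Figure D3:**
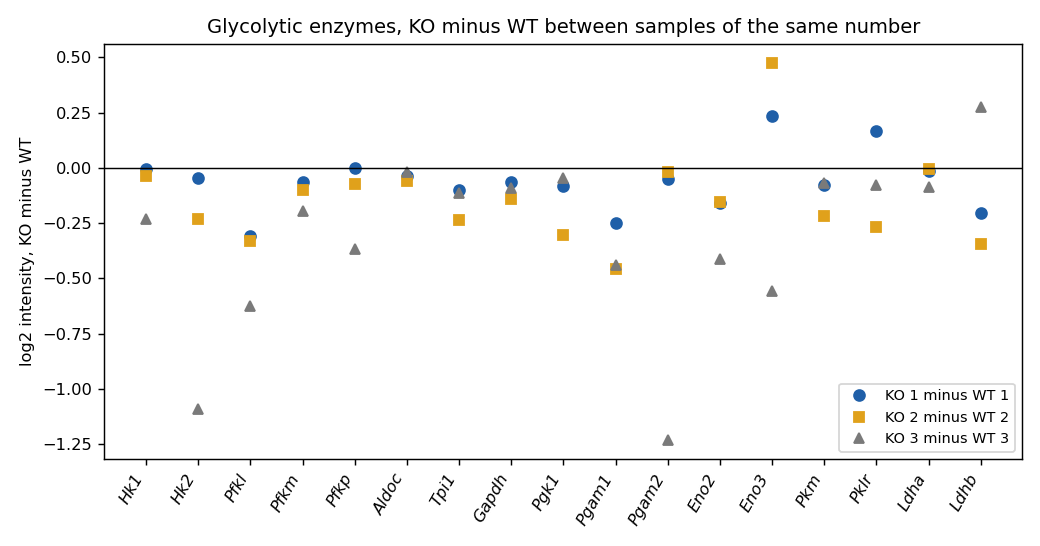
KO minus WT log2 intensity (y axis) of each measured glycolytic enzyme (x axis, in pathway order) between samples of the same replicate number, 3 points per gene. For 14 of 17 enzymes all points lie below 0, some by less than 0.05, and the lowest points of Hk2 (-1.09) and Pgam2 (-1.23) belong to the samples numbered 3.

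The muscle isoforms varied more between samples of a genotype than between the genotypes. Pgam2, the muscle-type mutase, had 7.16, 6.36 and 8.68 in WT and 7.11, 6.34 and 7.45 in KO. Eno3, the muscle-type enolase, had 9.98, 9.51 and 10.53 in WT and 10.21, 9.99 and 9.98 in KO. Both were highest in WT replicate 3. The summed intensity of the 9 lens markers was 28820, 15289 and 50841 in WT and 19132, 10719 and 29314 in KO, with none of the 9 under the lower quartile on all arrays. For Pgam2 the order of the 6 samples was that of the lens sum, with WT replicate 3 at the top and both samples numbered 2 at the bottom. For Eno3 only the top sample was shared. The difference of Pgam2 was -0.43 (standard error 0.54), and without WT replicate 3 it was 0.21. That of Eno3 was 0.05 (standard error 0.26), and -0.20 without WT replicate 2. Of the 8 skeletal muscle markers, 5 had a lower mean in KO, with sums of 1138 to 1273 in WT and 1074 to 1218 in KO, and Mylpf was under the lower quartile on all arrays. The part of lens RNA in these values was not tested.

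**Figure D4:**
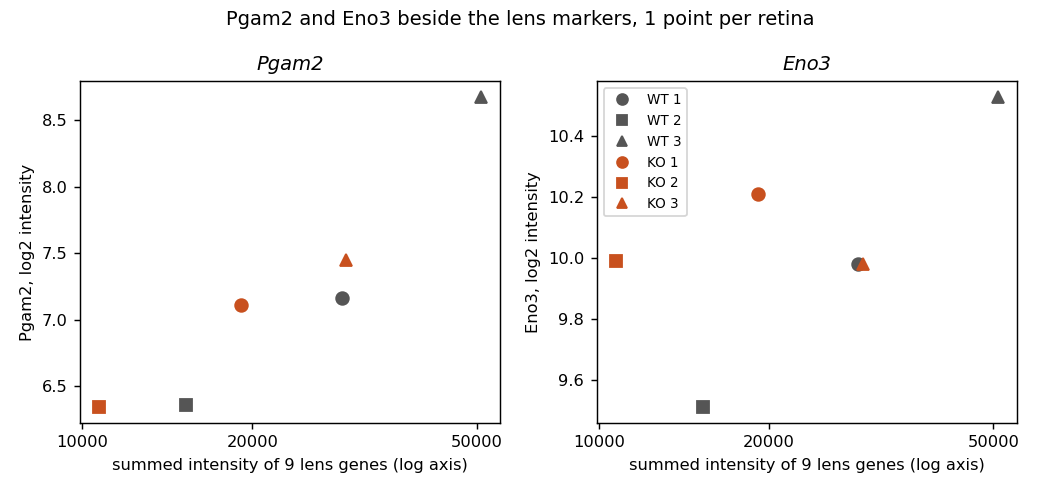
Log2 intensity of Pgam2 (left) and Eno3 (right) against the summed linear intensity of 9 lens genes on a log axis, 1 point per retina. WT replicate 3 is highest on both axes in both panels. Pgam2 is lowest in the samples numbered 2, which have the smallest lens sums.

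Markers of some other cell types lay lower in KO, with 0 past the adjusted test and overlapping sums. The 7 measured ganglion cell markers all had a lower mean in KO, 4 of them past the unadjusted threshold of 0.05 in limma, with a median difference of -0.47 and summed intensities of 8240 to 10591 in WT and 6216 to 8567 in KO. Those 4 were Nefl, Nefm, Nefh and Thy1. The differences of Rbpms (-0.07) and Sncg (-0.08) were small, and that of Pou4f1 was -0.40. The 9 lens markers all lay lower on average as well (median -0.71), with 0 at the unadjusted threshold of 0.05. With the replicate block, 7 of the 9 lens and 5 of the 7 ganglion cell markers were lower at that threshold in limma. Of all probe sets 3.54% were so, and 0 markers of these 2 lists passed after adjustment. Of 7 cone markers 6 lay lower and 1 higher (median -0.115). Of 7 rod markers 3 lay lower and 4 higher (median 0.018), and of 7 Müller glia markers 4 lower and 3 higher (median -0.063). Rod markers summed to 43452 to 45434 in WT and 40385 to 44742 in KO, cone markers to 14608 to 18223 and 14050 to 15414, and Müller glia markers to 17452 to 21334 and 17648 to 20677. No marker of these lists was under the lower quartile on all arrays. Their part in the lower enzyme values was not tested.

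Of the 4 measured regulators of fructose-2,6-bisphosphate, 1 had every KO sample below every WT sample, as in 3.67% of all probe sets. Pfkfb3, the isoform that strongly favours synthesis of the activator, had 7.91, 7.80 and 7.84 in WT and 7.75, 7.42 and 7.63 in KO. All KO values lay below all WT values, by a narrow margin between WT replicate 2 and KO replicate 1. The means were 7.85 ± 0.06 and 7.60 ± 0.17 (SD, n = 3). The KO level was 0.841 times WT, a difference of -0.25 (standard error 0.16, unadjusted p = 0.158 from limma). Tigar, a phosphatase that lowers the activator, went the same way, with 9.10, 8.73 and 9.16 in WT and 8.97, 8.60 and 8.85 in KO. It was lower in each pair (-0.13, -0.12 and -0.32), while the genotypes overlapped through WT replicate 2, and the difference of -0.19 had a standard error of 0.19.

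Pfkfb2, known as the heart isoform, was the regulator with the highest KO minus WT difference. Its levels were 11.28, 11.09 and 11.12 in WT and 11.31, 11.50 and 10.97 in KO. KO samples held both the highest and the lowest level, and the difference of 0.09 (95% interval -0.33 to 0.52) turned to -0.03 without KO replicate 2. Pfkfb4, a further isoform of the same enzyme family, was at -0.04 (-0.55 to 0.48). Its levels spread over 7.53 to 7.97 in WT and 7.37 to 8.09 in KO.

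Among the kinases that inactivate pyruvate dehydrogenase, Pdk4 stood apart in KO retinas. Pdk4, the isoform known for its induction in fasting, had 6.15, 6.15 and 5.98 in WT and 6.37, 6.80 and 6.50 in KO. Every KO sample was above every WT sample, as in 1.98% of all probe sets, and the widest gap between pairs was that of number 2. The means were 6.10 ± 0.10 in WT and 6.56 ± 0.22 in KO (SD, n = 3). The difference was 0.46 (standard error 0.18, 95% interval 0.06 to 0.86), a KO level of 1.38 times WT. Its unadjusted p was 0.029 from limma and its exact permutation p was 0.10, two-sided. The signal was low: it lay above the lower quartile on all 6 arrays and above the median on 0 of them.

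The other kinases did not follow Pdk4. Pdk1, known as a target of Hif1α, had 8.16, 7.85 and 8.15 in WT and 8.08, 7.77 and 7.82 in KO. It was lower in each pair (-0.08, -0.08 and -0.34), with overlap, at a difference of -0.17 (95% interval -0.57 to 0.23). A second Pdk1 probe set had 0.03 and lay under the lower quartile on all arrays. Pdk2, the most widely expressed isoform, had 9.94, 9.63 and 9.96 in WT and 9.95, 9.92 and 9.88 in KO. Apart from the low WT replicate 2 its values were alike, and the difference of 0.07 (-0.31 to 0.45) was -0.04 without that sample. Pdk3, encoded on the X chromosome, was at 0.11 (standard error 0.33), with its lowest levels in the samples numbered 2 (8.68 in WT and 9.02 in KO), and at -0.23 without WT replicate 2. The interval of the Pdk1 difference overlapped that of Pdk4, and the difference between the 2 kinases was not tested.

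The subunits of the pyruvate dehydrogenase complex were at WT level within wide intervals. Pdha1, the catalytic subunit that the kinases phosphorylate, had 8.78, 8.18 and 8.78 in WT and 8.90, 8.24 and 8.87 in KO. It was slightly higher in each pair (0.12, 0.07 and 0.09), and the spread between numbers was far wider than that gap (difference 0.09, standard error 0.25). Pdhb, its partner in the same component, had 10.36, 9.94 and 10.37 in WT and 10.30, 10.11 and 10.64 in KO, a difference of 0.12 (standard error 0.21). Dlat, the acetyltransferase core, had 9.20, 8.63 and 9.29 in WT and 9.17, 8.97 and 8.94 in KO, a difference of -0.01 (standard error 0.21). In all 3 genes WT replicate 2 held the lowest level of the WT samples.

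**Figure D5:**
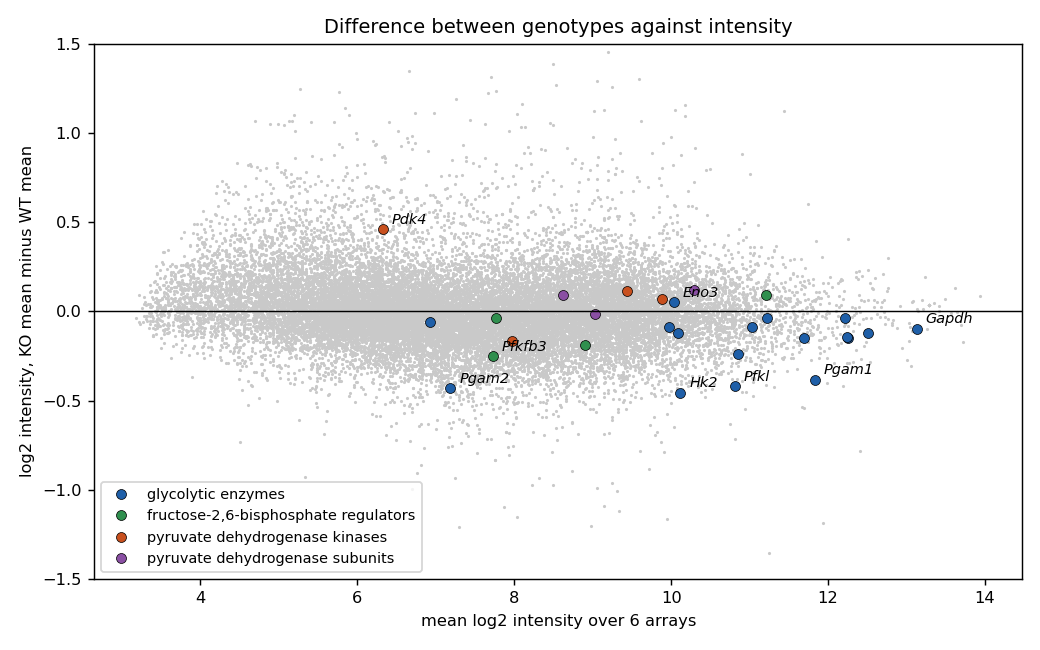
KO minus WT difference of the mean log2 intensity (y axis) against the mean log2 intensity over 6 arrays (x axis) for all 23521 probe sets tested (grey, with 6 beyond 1.5 in either direction not drawn) and for the 28 members, coloured by role. The enzymes lie mostly just under 0 at the bright end, and Pdk4 lies above 0 at the dim end.

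Genes around the pathway gave 0 calls in either direction at an unadjusted p under 0.05 from limma, in each of 6 lists. Of 9 other glycolytic genes and isoforms, 6 had a lower mean (median -0.12). Ldhd, the D-lactate dehydrogenase, had the smallest p (-0.36, standard error 0.17). Its KO samples all lay below the WT samples, as in 3.67% of all probe sets. Of 6 genes of the pentose phosphate pathway, 5 had a lower mean (median -0.19), with the smallest p for H6pd of the endoplasmic reticulum (-0.24, standard error 0.16). Of 6 gluconeogenic genes, 4 had a lower mean (median -0.08), with the smallest p for the mitochondrial carboxykinase Pck2 (-0.12, standard error 0.17).

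The mitochondrial lists had mostly higher means. Of 15 citrate cycle genes, 11 had a higher mean in KO, where 48.2% of all probe sets did, with a median difference of 0.11. By pair the median was -0.06, 0.04 and 0.15, and 3 of the 15 were higher in all pairs. The smallest p was that of Suclg2, a subunit of succinate-CoA ligase (0.27, standard error 0.25). Of 7 genes of pyruvate entry and the rest of the pyruvate dehydrogenase complex, 6 had a higher mean (median 0.08). The exception was Pdp2, a phosphatase that reactivates the complex, at -0.41 (standard error 0.23). Of 5 genes that shuttle cytosolic NADH, 4 had a lower mean (median -0.17), with the smallest p for the glycerol-3-phosphate dehydrogenase Gpd1, with 7.10, 7.14 and 7.77 in WT and 6.93, 6.92 and 6.81 in KO (-0.45, standard error 0.21). With the replicate block, Pdp2, Gpd1 and Ldhd were lower at unadjusted p of 0.029, 0.035 and 0.047 from limma, and 0 genes of the 6 lists passed after adjustment. The citrate cycle genes varied more between samples than between genotypes. Relative to the WT mean, their median was 0.13, -0.27 and 0.35 in KO replicates 1 to 3 and 0.14, -0.31 and 0.17 in the WT samples.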

How the data were processed

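Total retinal RNA from 15-day-old mice, 3 samples labelled WT and 3 labelled KO, was hybridized to 1 array per sample. The authors processed the scanner files with RMA in Bioconductor and deposited 1 intensity per probe set, on a linear scale (8.014 to 16601 in WT replicate 1), of which log2 was taken here. The package version, annotation and build are not given in the sources used here. Symbols came from the platform annotation: 23521 of 41345 probe sets had exactly 1 symbol, 1820 had several and 16004 none. The genotypes were compared in limma 3.58.1 (R 4.3.3; lmFit, then eBayes), two-sided, with no covariate and Benjamini-Hochberg adjustment over the 23521 probe sets. The methods' threshold of an unadjusted p under 0.05 is given too. Exact permutation tests used all 20 ways of choosing 3 of 6 samples. The number of arrays limits the precision. Nothing says that the samples came from separate litters, so that p-values measure only the spread between these samples.

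The genotypes share replicate numbers and the labels give same-numbered samples a common tag. Deviations from the group means correlated above 0.1 in every pair (0.626, 0.742 and 0.193), so the number was also fitted as a block. They did so as well for WT replicate 3 with KO replicate 1 (0.506) and WT replicate 1 with KO replicate 3 (0.116). The pairing is therefore uncertain for numbers 1 and 3. Deviations cancel out within each genotype. A shift shared by the samples numbered 2 can thus by itself make the other samples correlate. The members and lists were chosen with earlier results of these data known. Values in every sample are given for members at an unadjusted p under 0.05 or without overlap, and for those with the smallest p (up to 3), the highest and the lowest difference in each role group. The samples' values for Pkm, Ldha and Pgam2 were added after they were seen. The fit was tested on simulated data. Promoter sequences are from RefSeq, and all 32 members matched by symbol.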

Additional observations from a re-analysis of the deposited data

How the results depend on the processing

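Results were recomputed under 19 alternatives. With array weights 6 members were lower at an unadjusted p under 0.05, with the linear values 3, and with the replicate block, quantile normalization again, the interquartile range covariate or the intensity trend with a robust prior 2, against 1. The cause was not tested. Leaving out 1 sample gave 0 to 2 lower and 0 to 1 higher. The median of the kinases was -0.12 with array weights and ran from -0.14 to 0.22 over the left-out samples. The medians of the other role groups moved by less than the spread between replicates. The hypoxia response core was in 25 members with GCGTG counted as well as ACGTG, where 46.7% of all genes had either. By promoter, either form was in 67.3% of those of the members and in 43.8% of all.

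Of 532 values of single members, 490 kept their direction and side of the threshold and 42 changed sign, none of them called. The differences of 11 members, Pfkl, Pgam1, Pfkfb3 and Pdk4 among them, kept their sign throughout. With array weights the differences were 0.17 (Pklr), -0.08 (Pfkfb2), -0.03 (Pdk2), -0.20 (Pdk3) and -0.03 (Pdha1). With the interquartile range covariate Pfkfb4 was at 0.02 and Dlat at 0.04, and with linear values Eno3 was at -0.01. Without both samples numbered 2, the values were -0.16 (Eno3), 0.04 (Pklr), 0.04 (Ldhb), -0.06 (Pfkfb2), 0.03 (Pfkfb4) and -0.04 (Pdk2). Leaving out 1 sample gave ranges of -0.18 to 0.01 (Hk1), -0.81 to 0.03 (Hk2), -0.26 to 0.01 (Pfkm), -0.24 to 0.03 (Pfkp), -0.09 to 0.02 (Aldoc), -0.95 to 0.21 (Pgam2), -0.20 to 0.31 (Eno3), -0.20 to 0.13 (Pklr), -0.11 to 0.03 (Ldha), -0.30 to 0.13 (Ldhb), -0.03 to 0.24 (Pfkfb2), -0.21 to 0.15 (Pfkfb4), -0.04 to 0.13 (Pdk2), -0.23 to 0.35 (Pdk3), -0.11 to 0.31 (Pdha1), -0.03 to 0.24 (Pdhb) and -0.22 to 0.11 (Dlat).

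Over all probe sets, 70 to 2283 were lower and 114 to 2253 higher at an unadjusted p under 0.05 under the alternatives, the highest counts with array weights. With the replicate block they were 833 and 887, and with the methods' t-test 423 and 200. After adjustment 0 to 5 passed, and 0 members passed under any alternative. The replicate block changed no other call of a member than that of Pgam1. The median of the enzymes ran from -0.21 to -0.07 over the left-out samples. A dim signal, as for Pdk4, limits what the arrays can measure.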
